A study of Mus musculus with 6 samples.

Results

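Of the 14238 genes in the deposited table, 92 formed a set that lay well below the uninduced level in ETV6::FRK-induced Ba/F3 cells in each of 3 culture pairs. Ba/F3 is a mouse pro-B line whose growth depends on interleukin-3. The induced group carried the ETV6::FRK fusion, in which part of ETV6, a transcription factor, is joined to FRK, a tyrosine kinase, under a doxycycline-switched promoter, and received 500 ng/ml doxycycline, with RNA taken at 48 h. The control group was the same transduced line without doxycycline, so both groups carry the construct. There were 3 libraries in each group, whose titles pair them as EF1, EF2 and EFPC. The labels explain none of these prefixes. They say that cells were seeded in triplicate, but not whether the line is 1 clone or the cultures separate experiments. The spread between libraries may therefore not be that of independent experiments. Induced titles also carry IL3n and control titles IL3p. The effects of doxycycline, of the fusion and of what IL3n and IL3p denote cannot be told apart.

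The 92 genes were chosen by their read counts in these same 6 libraries. Every gene in the deposited table had at least 1 read in each library. A gene without reads in even 1 of the libraries therefore had no row and could not enter, whatever its level in the others. Counts were scaled to the library total to give CPM, and a protein-coding gene entered if its controls averaged at least 5 CPM and if the ratio of induced to control CPM was at most about 0.67 in each of the 3 pairs. That left 111 genes of the 9417 protein-coding genes at this level, a share of 1.18%. The mirror rule, a ratio of at least 1.5 in each pair, took 133 genes, or 1.41%. Of the 111, 16 were then taken out by a list of glycolytic, hypoxia-response and other named genes and 3 by the prefixes of gene families. Adgre1, a macrophage marker also on that list, had 5.88, 11.3 and 6.09 CPM in the induced cells, against 14.9, 18.8 and 24.3 CPM in the controls. Because the rule used the contrast itself in every library, the values below describe the members and no test of them is offered as support. Reads per gene in a bulk culture do not tell fewer cells of a type from less RNA per cell.

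A signalling kinase such as FRK acts on transcription at a distance, through adaptor proteins, feedback phosphatases and the transcription factors they reach. Ba/F3 cells normally receive that input from the interleukin-3 receptor, whose signal sustains glycolysis, nucleotide supply, cell division and survival. Whether any of this bears on the members was not tested, and they are given here by what their products do.

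Total counts ran from 31138705 to 43177842 in the induced libraries and from 30970019 to 40179759 in the controls. The lowest count of any member in any library was 19 reads. Of the 15 listed pro-B markers, 4 had a row in the table, and of these Ptprc and Spn, the genes of the leukocyte antigens CD45 and CD43, lay between 345 and 484 CPM in the induced cells and between 237 and 293 CPM in the controls. Cd79b and Cd79a, the signalling chains of the B cell receptor, were low, at 5.203, 5.37 and 13.7 CPM and 0.996, 0.325 and 0.509 CPM in the induced cells against 10.98, 14.5 and 13.5 CPM and 1.32, 2.58 and 0.165 CPM in the controls. The other listed pro-B markers were not analysed here. Of the 12 macrophage and neutrophil markers, 5 had a row, with summed levels of 16.2 to 110.4 CPM in the induced cells and 45.4 to 60.9 CPM in the controls. Fcgr1, a macrophage Fc receptor gene, made up most of the highest sum, with 80.6, 76.03 and 1.39 CPM in the induced cells, against 22.8, 23.6 and 15.1 CPM in the controls. Of the 10 T and NK cell markers and the 9 fibroblast markers, 1 each had a row, with sums of 2.08 to 4.10 CPM and 0.394 to 0.650 CPM in the induced cells and of 2.55 to 5.03 CPM and 0.124 to 0.715 CPM in the controls. The part of such cells in the members' values was not tested.

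Summed over the 92 genes, the share of all counts was 0.334%, 0.326% and 0.344% in the induced EF1, EF2 and EFPC cultures, against 0.683%, 0.642% and 0.683% in the controls. The mean share was 0.335% ± 0.00873 in the induced cells and 0.669% ± 0.0235 in the controls (SD, n = 3 each). The median member had a ratio of 0.486 in pair EF1, 0.494 in pair EF2 and 0.557 in pair EFPC. Over all 9417 genes the medians were 0.944, 0.996 and 0.999. The members' mean log2 ratios over the 3 pairs ran from -2.31 to -0.63 with a median of -1.07, and 16 of the 92 were at a ratio of 0.5 or lower in all 3 pairs. Of the 9417 genes, only members and genes excluded by name or prefix could meet that limit.

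**Figure D1:**
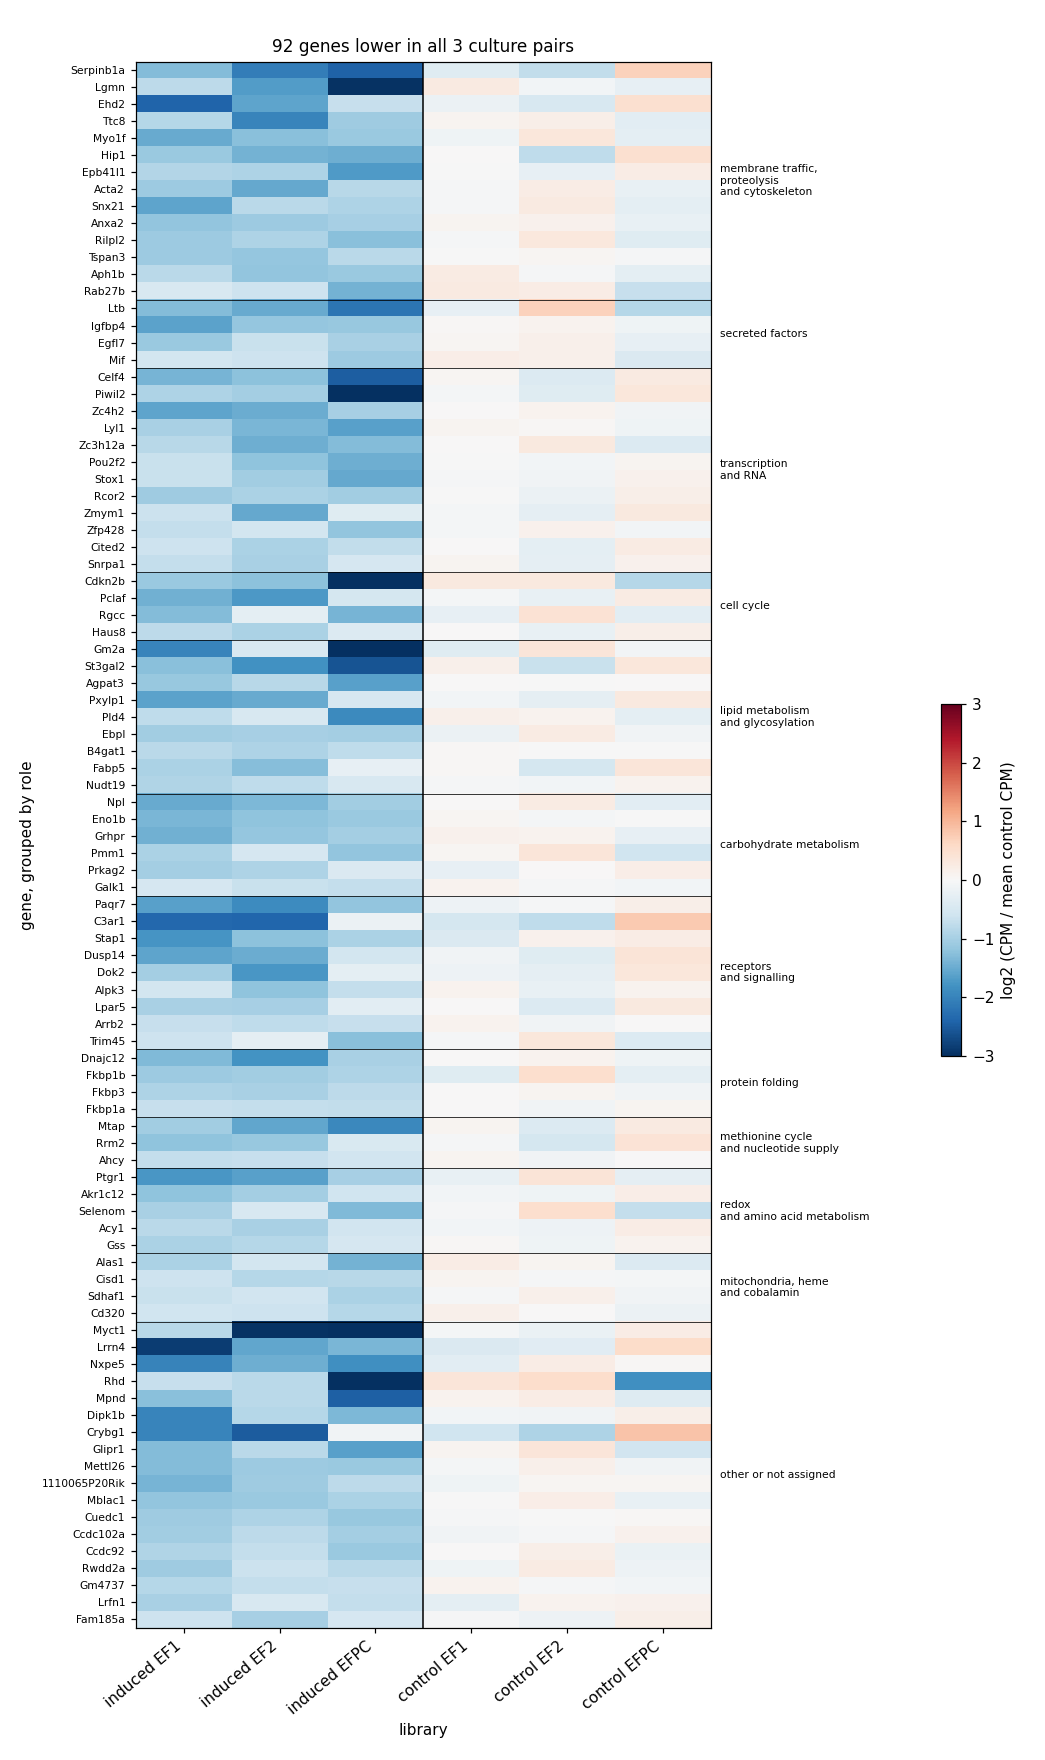
Heat map of the 92 genes (rows, grouped by the role of the product) in 6 libraries (columns, induced left and control right). Colour gives log2 of CPM over the mean control CPM, with values beyond -3 or 3 drawn at the end of the scale; the induced columns are blue throughout, most deeply for single genes in the EFPC library such as Rhd, Piwil2 and Gm2a.

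In 81 of the 92 members (88.0%), all 3 induced libraries lay below all 3 controls, against 13.9% of the 9417 genes. The edgeR quasi-likelihood test called 0 members lower at an adjusted p under 0.05, and 0 (0%) of the 13260 genes tested. At an unadjusted p under 0.05 it put 85 members lower, against 8.23% of tested genes. The adjusted p of the members ran from 0.127 to 0.515. DESeq2 called 73 of the 92 lower, against 2.65% of genes, and 90 against 4.73% with the replicate block, which treats each culture pair as a unit. The edgeR count with that block was 0 of 92 and 0 genes in all. Leaving out the induced EFPC library gave 42 members called by edgeR, against 2.04% of genes, and leaving out both EFPC libraries gave 77, against 6.37%. The rule used the same contrast, so nothing is read from these counts.

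The 11 members whose groups overlapped were C3ar1, Crybg1, Rhd, Rab27b, Rrm2, Rgcc, Selenom, Pmm1, Fabp5, Lpar5 and Trim45. C3ar1, the receptor of the complement fragment C3a, had 4.72, 4.65 and 21.5 CPM in the induced cells, against 17, 14.3 and 41.6 CPM in the controls. Its EFPC libraries were the highest of each group, and the induced EFPC culture lay above the EF1 and EF2 controls. Crybg1, which encodes a crystallin-domain protein, did likewise with 6.42, 4.45 and 23.3 CPM in the induced cells, against 16.6, 13.3 and 45.6 CPM in the controls. Rab27b, a small GTPase of secretory vesicle release, showed the other order with 16.8, 15.2 and 8.71 CPM in the induced cells, against 28.3, 27.4 and 14.4 CPM in the controls. Here the EFPC pair lay lowest in both groups. In these 3 genes the EFPC libraries of both groups stood at another level than EF1 and EF2.

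The 3 pairs contributed about evenly, with the lowest ratio in pair EF1 for 31 members, in EF2 for 31 and in EFPC for 30. The EFPC pair was the most selective of the 3. There, 457 of the 9417 genes met the ratio limit, against 918 in EF1 and 1207 in EF2. Of the 578 genes that passed in both EF1 and EF2, 111 (19.2%) also passed in EFPC. Among the members, 11 were at a ratio of 0.25 or lower in EFPC, against 2 in EF1 and 4 in EF2. The same shares over the 9417 genes were not computed, so these counts are not read as a trait of the members. Each pair holds 1 library of each group, so differences between pairs were not tested.

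**Figure D2:**
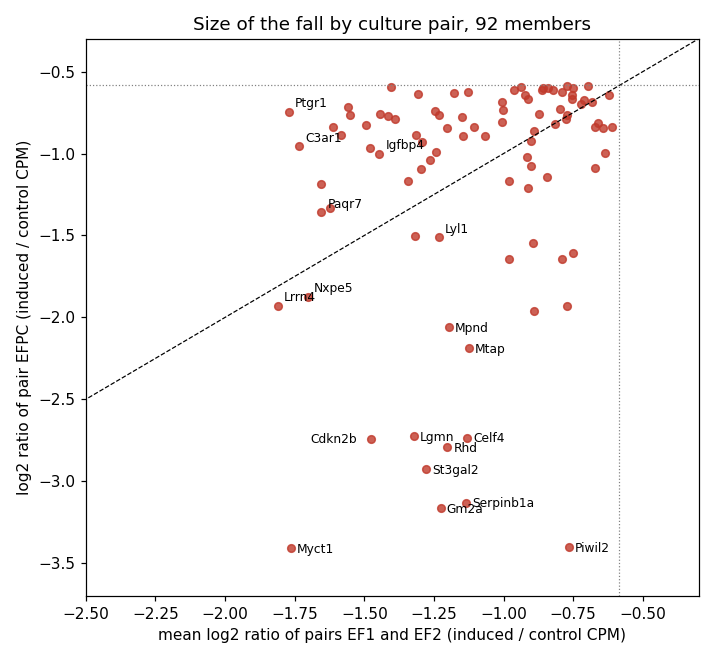
Log2 ratio of induced to control CPM in pair EFPC (vertical axis) against the mean of pairs EF1 and EF2 (horizontal axis), 1 point for each of the 92 members. The dashed line marks equal falls and the dotted lines the ratio limit of about 0.67; 11 genes lie below -2 on the EFPC axis, with Myct1 and Piwil2 at the bottom.

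Myct1, a gene named as a target of MYC, had the lowest mean log2 ratio. It stood at 9.699, 2.2 and 1.899 CPM in the induced cells, against 16.6, 14.9 and 20.2 CPM in the controls. The ratios were 0.586, 0.148 and 0.0941, so the fall was shallow in EF1 and deep in the other pairs. The mean log2 ratio was -2.31 ± 1.37 (SD over 3 pairs).

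Cdkn2b, which encodes the cyclin-dependent kinase inhibitor p15, had 4.91, 4.52 and 0.8801 CPM in the induced cells, against 13.2, 13.04 and 5.88 CPM in the controls. Both EFPC libraries were the lowest of their groups, and the groups did not overlap. Gm2a, a lysosomal activator protein that helps break down the ganglioside GM2, had 2.92, 8.298 and 1.204 CPM in the induced cells, against 9.01, 14.7 and 10.8 CPM in the controls. Lrrn4, a leucine-rich repeat membrane protein gene, had 1.28, 3.12 and 3.57 CPM in the induced cells, against 6.79, 7.26 and 13.6 CPM in the controls, with the deepest fall in EF1 at a ratio of 0.189. That was the lowest ratio of any member in pair EF1.

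St3gal2, a sialyltransferase of the Golgi, had 23.5, 15.9 and 9.26 CPM in the induced cells, against 62.5, 35.3 and 70.5 CPM in the controls. Serpinb1a, an intracellular inhibitor of neutrophil serine proteases, had 16.2, 9.47 and 7.41 CPM in the induced cells, against 31.1, 23.8 and 64.96 CPM in the controls. Lgmn, which encodes the lysosomal protease legumain, had 25.3, 13.6 and 5.56 CPM in the induced cells, against 52.3, 41.2 and 36.8 CPM in the controls. In all 3 genes the induced EFPC library was the lowest and the ratio was lowest in EFPC, at 0.131 for St3gal2, 0.114 for Serpinb1a and 0.151 for Lgmn.

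Nxpe5, a neurexophilin-family gene, fell most evenly among the 12 members with the lowest mean log2 ratio. It had 1.45, 2.1 and 1.62 CPM in the induced cells, against 4.704, 6.84 and 5.94 CPM in the controls, and ratios of 0.307, 0.307 and 0.273 gave a mean log2 ratio of -1.76 ± 0.10. Paqr7, a membrane progestin receptor gene, followed with 3.95, 3.32 and 5.396 CPM in the induced cells, against 10.98, 11.8 and 13.8 CPM in the controls and ratios of 0.3599, 0.281 and 0.3903. Rhd, of the Rh family of erythroid membrane proteins, had 6.74, 6.199 and 0.44 CPM in the induced cells, against 14.1, 15.7 and 3.05 CPM in the controls, and its control EFPC library lay below the induced EF1 and EF2 libraries.

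Celf4, an RNA-binding splicing regulator, had 3.37, 3.75 and 1.598 CPM in the induced cells, against 9.11, 6.65 and 10.6 CPM in the controls. Piwil2, a PIWI protein that works with small RNAs in the germ line, had 3.37, 3.199 and 0.764 CPM in the induced cells, against 6.22, 5.005 and 8.08 CPM in the controls. The ratio of Piwil2 in EFPC, 0.0946, rested on a level below 1 CPM in the induced library. Its spread over pairs was wide, with a mean log2 ratio of -1.64 ± 1.53.

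**Figure D3:**
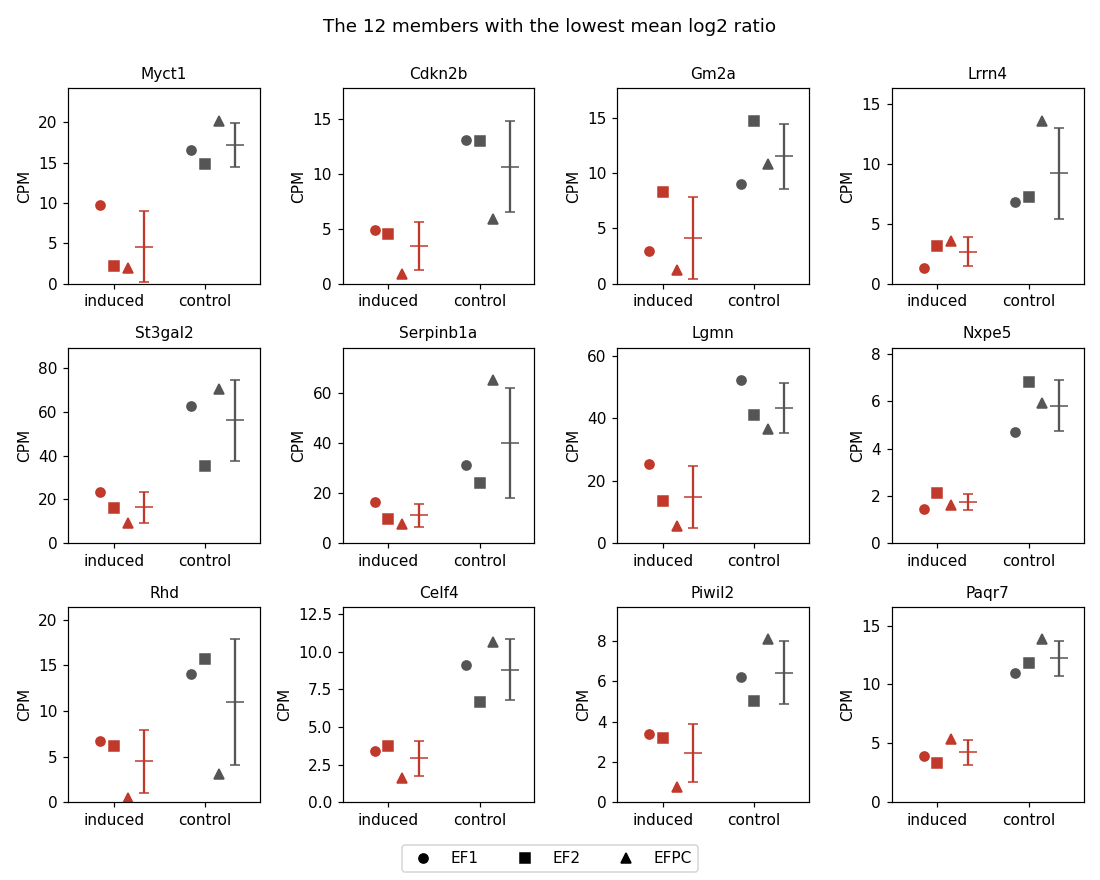
CPM of the 12 members with the lowest mean log2 ratio, induced left and control right, with a circle for EF1, a square for EF2 and a triangle for EFPC and a bar for the mean ± SD (n = 3). Every pair falls in each panel, and only Rhd has overlapping groups.

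Igfbp4, a secreted binding protein that holds insulin-like growth factors, was the member with the highest control CPM. It had 184, 249.6 and 254 CPM in the induced cells, against 572, 596 and 508 CPM in the controls, an average of 229 ± 39.3 CPM in the induced cells and 559 ± 45.4 CPM in the controls (SD, n = 3 each). Its groups were far apart relative to their spread, and the ratios were 0.322, 0.419 and 0.499. Mif, a cytokine with tautomerase activity, was the most abundant member per transcript length, at 761 ± 140.2 TPM in the induced cells and 1161 ± 184 TPM in the controls (SD, n = 3 each). Its CPM values were 257, 244 and 176 CPM in the induced cells, against 429, 416 and 279 CPM in the controls, with ratios of 0.599, 0.588 and 0.6298. The EFPC library was lowest in each group, and the ratio was nearly the same in all pairs.

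Egfl7, a secreted protein of endothelial and progenitor cells, had 27.3, 37.3 and 30.3 CPM in the induced cells, against 61.5, 66.4 and 50.3 CPM in the controls. Ltb, the membrane-anchoring chain of lymphotoxin, had 28.2, 24.2 and 15.01 CPM in the induced cells, against 57.9, 111 and 37.9 CPM in the controls. The control EF2 library of Ltb was the highest of the 6, and the groups did not overlap.

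The transcription and RNA class held 12 members. Cited2, a coregulator that competes with hypoxia-inducible factor for the coactivators CBP and p300, had 292, 234 and 268 CPM in the induced cells, against 452, 366 and 536 CPM in the controls, and ratios of 0.646, 0.6397 and 0.501. Lyl1, a basic helix-loop-helix transcription factor of blood progenitors, had 107, 81.3 and 67.8 CPM in the induced cells, against 222, 217 and 193 CPM in the controls. Lyl1 averaged 85.4 ± 20.03 CPM in the induced cells and 210.5 ± 15.2 CPM in the controls (SD, n = 3 each), and its fall was deepest in EFPC.

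Rcor2, a corepressor that works with the demethylase LSD1, had 23.8, 26.1 and 24.5 CPM in the induced cells, against 49.7, 44.2 and 56.6 CPM in the controls. Snrpa1, a protein of the U2 spliceosomal particle, had 61.3, 51.7 and 71.2 CPM in the induced cells, against 107, 84.05 and 111 CPM in the controls. Pou2f2, the B lineage factor Oct-2, had ratios of 0.6303, 0.459 and 0.343, and Zc3h12a, the ribonuclease Regnase-1 that degrades inflammatory transcripts, had ratios of 0.549, 0.294 and 0.541. The zinc finger genes Zfp428, Zc4h2 and Zmym1 and the winged-helix gene Stox1 had control means of 5.88 to 28.1 CPM.

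The promoters of 5 members, picked after their values were seen from the abundant members and the Mtap and Cdkn2b pair, are shown so that the hypoxia-response core can be read in place, since hypoxia-response genes were among those the rule took out. Each is the RefSeq window of 300 bases in GRCm38.p6, from 250 before to 50 after a start site. Capitals mark the core of the hypoxia-response element, ACGTG or GCGTG on either strand.
Igfbp4 (chr11:99040994-99041293, plus strand): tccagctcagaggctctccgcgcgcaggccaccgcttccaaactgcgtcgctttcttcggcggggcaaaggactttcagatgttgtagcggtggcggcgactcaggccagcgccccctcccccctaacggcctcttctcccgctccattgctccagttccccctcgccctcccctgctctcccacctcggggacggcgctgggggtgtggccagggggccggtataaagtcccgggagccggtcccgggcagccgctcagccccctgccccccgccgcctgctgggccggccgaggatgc
Mtap (chr4:89137120-89137419, plus strand): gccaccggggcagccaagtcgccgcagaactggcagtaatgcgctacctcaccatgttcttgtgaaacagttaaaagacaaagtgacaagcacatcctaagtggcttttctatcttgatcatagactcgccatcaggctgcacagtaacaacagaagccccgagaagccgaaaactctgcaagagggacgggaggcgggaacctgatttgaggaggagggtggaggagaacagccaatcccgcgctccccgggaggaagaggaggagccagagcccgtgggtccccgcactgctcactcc
Cited2 (chr10:17722978-17723277, plus strand): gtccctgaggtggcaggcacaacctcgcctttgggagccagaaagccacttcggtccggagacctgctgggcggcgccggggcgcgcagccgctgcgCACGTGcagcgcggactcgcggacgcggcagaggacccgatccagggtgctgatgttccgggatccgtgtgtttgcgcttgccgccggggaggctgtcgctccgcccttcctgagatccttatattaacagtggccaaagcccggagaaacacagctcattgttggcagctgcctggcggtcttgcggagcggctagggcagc
Lyl1 (chr8:84701207-84701506, plus strand): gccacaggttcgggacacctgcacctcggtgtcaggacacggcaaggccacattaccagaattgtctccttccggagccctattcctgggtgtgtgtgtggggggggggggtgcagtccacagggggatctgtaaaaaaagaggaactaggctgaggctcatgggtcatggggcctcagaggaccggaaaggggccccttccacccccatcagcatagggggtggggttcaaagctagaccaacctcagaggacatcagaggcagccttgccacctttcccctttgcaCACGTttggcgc
Cdkn2b (chr4:89310983-89311282, minus strand): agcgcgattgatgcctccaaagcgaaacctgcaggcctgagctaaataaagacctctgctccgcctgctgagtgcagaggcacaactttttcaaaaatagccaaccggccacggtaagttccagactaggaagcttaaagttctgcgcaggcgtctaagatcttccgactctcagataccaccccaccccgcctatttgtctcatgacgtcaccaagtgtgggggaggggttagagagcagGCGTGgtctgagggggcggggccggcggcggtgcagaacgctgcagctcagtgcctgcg

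Igfbp4 and Mtap have 0 such cores in this window, Lyl1 and Cdkn2b 1 each, and Cited2 2 that overlap on opposite strands as CACGTG. RefSeq windows were matched for 78 of the 92 members, which have 95 windows. A core was present in 62.1% of them, against 63.8% of the 9785 windows of the 9417 genes that have one and 43.8% of all 32851 windows. The rule had taken hypoxia-response genes out of the members but not out of the 9417, so the 2 shares are not fully alike. Of the member windows, 7.37% held CACGTG, which contains the core, against 10.5% of expressed genes' windows. The STAT-type motif TTCNNNGAA was in 6.32% against 6.89%, and the AP-1 motif TGANTCA in 5.26% against 4.73%. The ETS-type motif CCGGAAG was in 13.7% against 20.5%, and CCAAT in 26.3% against 38.5%. All motifs were searched on both strands. Median GC content was 61% in both sets of windows. These are letter matches and show no binding.

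Methionine cycle and nucleotide supply genes numbered 3. Mtap, which recovers methionine and adenine from methylthioadenosine, had 244, 172 and 132 CPM in the induced cells, against 529, 377 and 603 CPM in the controls, and averaged 183 ± 56.8 CPM in the induced cells and 503 ± 115 CPM in the controls (SD, n = 3 each). Its EFPC pair had both the lowest induced and the highest control value. Ahcy, which hydrolyses S-adenosylhomocysteine, had 156, 158 and 172 CPM in the induced cells, against 271, 239 and 258 CPM in the controls. Rrm2, the small subunit of ribonucleotide reductase, had 87.6, 92.05 and 147 CPM in the induced cells, against 198, 139.9 and 267 CPM in the controls. Its induced EFPC library lay above the EF2 control, so the groups overlapped.

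The other genes of the methionine cycle, its salvage route and polyamine synthesis come from a list drawn up after the members were known, without tests of the list. Of 18 listed genes with a row, 4 were called lower by DESeq2 and 0 higher, against 2.65% and 4.25% of all genes. The 4 were the members Mtap and Ahcy together with Mri1, of the salvage route, and Sms, the spermine synthase gene. The rule had selected Mtap and Ahcy for being lower. Mri1 had 22.8, 23.4 and 21.7 CPM in the induced cells, against 36.2, 40.8 and 29.8 CPM in the controls. Sms had 144, 131 and 148 CPM in the induced cells, against 209, 203 and 202 CPM in the controls. The median edgeR log2 fold change of the 18 was -0.18, against -0.01 over all 13260 genes tested. Methionine adenosyltransferase Mat2a, which makes S-adenosylmethionine, had ratios of 0.752, 1.12 and 1.08, and the ornithine decarboxylase gene Odc1 had 0.882, 1.31 and 0.818.

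**Figure D4:**
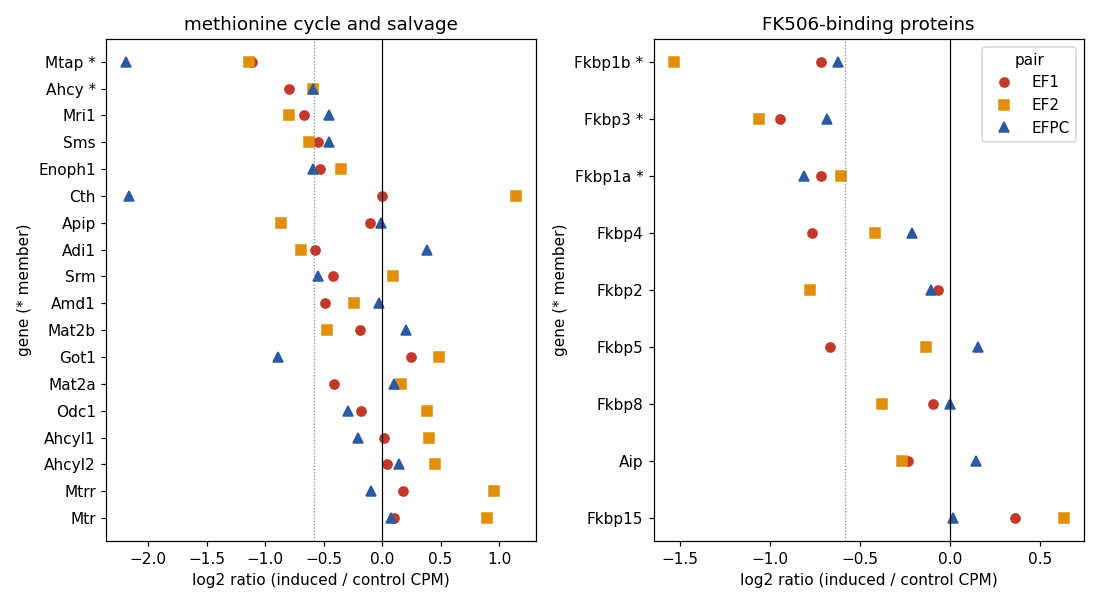
Log2 ratio of induced to control CPM in each culture pair for genes of the methionine cycle list (left) and the FK506-binding protein list (right) with at least 5 CPM in controls, with members starred and the ratio limit of about 0.67 dotted. Symbols give the pair; the starred genes stand at or left of the limit in all 3 pairs, while Mtr and Fkbp15 lie at or right of 0.

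Mtap and Cdkn2b are neighbours on chromosome 4, at chr4:89137370-89181090 and chr4:89306289-89311032 in GRCm38.p6, with 125199 bp between them. Cdkn2a, the gene of p16 and p19ARF that lies between them, was under the level limit and was looked up after the members' values were seen. It had 0.707, 0.725 and 1.23 CPM in the induced cells, against 1.89, 2.71 and 3.41 CPM in the controls, and ratios of 0.373, 0.267 and 0.3601. Klhl9, the nearest upstream gene with at least 5 CPM, had ratios of 0.929, 0.836 and 1.09. Cdkn2a was thus lower in each pair, as the 2 members beside it were by rule, while Klhl9 was lower in EF1 and EF2 and higher in EFPC. Other close neighbours among the members were Mblac1 and Nxpe5 on chromosome 5, 11878 bp apart, and Egfl7 and Dipk1b on chromosome 2, 35775 bp apart.

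Carbohydrate enzymes numbered 6. Eno1b, a retrotransposed copy of the enolase gene Eno1, had 141, 158 and 169.9 CPM in the induced cells, against 380.1, 354 and 363 CPM in the controls. Its sequence is close to that of Eno1, and reads of both genes may not be told apart by the authors' counting, so it is uncertain as a single gene. Galk1, which phosphorylates galactose, had 86.6, 77.8 and 74.2 CPM in the induced cells, against 132, 121 and 116 CPM in the controls, with ratios of 0.655, 0.645 and 0.642 and the smallest spread over pairs of all 92 members. Grhpr, a glyoxylate and hydroxypyruvate reductase, had 18.9, 22.8 and 25.3 CPM in the induced cells, against 55.9, 54.99 and 43.2 CPM in the controls. Pmm1, a phosphomannomutase, had 27.2, 36.7 and 22.9 CPM in the induced cells, against 54.4, 67.5 and 34.6 CPM in the controls, with overlapping groups. Npl, which breaks down sialic acid, had ratios of 0.346, 0.334 and 0.608, and Prkag2, a regulatory subunit of the energy sensor AMPK, had 0.585, 0.518 and 0.654.

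Redox and amino acid enzymes numbered 5. Akr1c12, an aldo-keto reductase, had 80.2, 91.7 and 123 CPM in the induced cells, against 175, 169 and 215 CPM in the controls. It has close copies in the Akr1c cluster, so its reads may be shared. Selenom, a selenoprotein of the endoplasmic reticulum, had 10.5, 14.6 and 8.11 CPM in the induced cells, against 20.1, 28.8 and 12.4 CPM in the controls, with overlapping groups. Ptgr1, an enzyme that acts on prostaglandins and leukotriene B4, had 6.58, 7.098 and 10.98 CPM in the induced cells, against 18.9, 28.8 and 18.4 CPM in the controls. Acy1, which removes acetyl groups from amino acids, had 14.2, 12.7 and 16.8 CPM in the induced cells, against 23.5, 22.6 and 29 CPM in the controls. Gss, which makes glutathione, had 11.1, 11.8 and 15.03 CPM in the induced cells, against 21.8, 19.3 and 22.7 CPM in the controls. The gene of Gss is overlapped over 24933 bp by the antisense gene Gssos2, whose ratios were 0.742, 1.30 and 5.16. The library kit was stranded, but the sources used here do not say whether reads were counted by strand, so Gss is uncertain as well.

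Mitochondrial, heme and cobalamin genes numbered 4. Alas1, the rate-limiting enzyme of heme synthesis outside red cells, had 42.9, 55.99 and 30.9 CPM in the induced cells, against 97.2, 88.2 and 62.6 CPM in the controls. Cisd1, an iron-sulfur protein of the outer mitochondrial membrane, had 29.7, 25.5 and 25.9 CPM in the induced cells, against 48.9, 45.2 and 43.9 CPM in the controls. Sdhaf1, an assembly factor of succinate dehydrogenase, had 14.1, 15.2 and 11.7 CPM in the induced cells, against 21.9, 24.9 and 20.9 CPM in the controls. Cd320, the receptor that takes up cobalamin bound to transcobalamin, had 10.9, 10.7 and 9.08 CPM in the induced cells, against 18.2, 16.5 and 14.6 CPM in the controls. Cisd1 and Cd320 fell evenly, with mean log2 ratios of -0.77 ± 0.05 and -0.68 ± 0.06.

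Lipid and glycosylation genes numbered 9, St3gal2 and Gm2a among them. Pld4, an endolysosomal nuclease of the phospholipase D family, had 37.99, 46.01 and 17.3 CPM in the induced cells, against 71.5, 69.4 and 52.6 CPM in the controls. Fabp5, a fatty acid carrier, had 22.4, 17.8 and 36.5 CPM in the induced cells, against 44.2, 29.7 and 55.3 CPM in the controls. Nudt19, a coenzyme A diphosphatase, had 22.99, 25.7 and 31.1 CPM in the induced cells, against 42.6, 40.6 and 46.7 CPM in the controls. Of these, Fabp5 had overlapping groups. Agpat3, of phospholipid synthesis, had ratios of 0.452, 0.569 and 0.3199, and Ebpl, of the sterol isomerase family, had ratios of 0.542, 0.421 and 0.538. B4gat1, which acts on dystroglycan sugar chains, had ratios of 0.559, 0.534 and 0.592. Pxylp1, a phosphatase of proteoglycan linkers, had ratios of 0.347, 0.419 and 0.578.

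**Figure D5:**
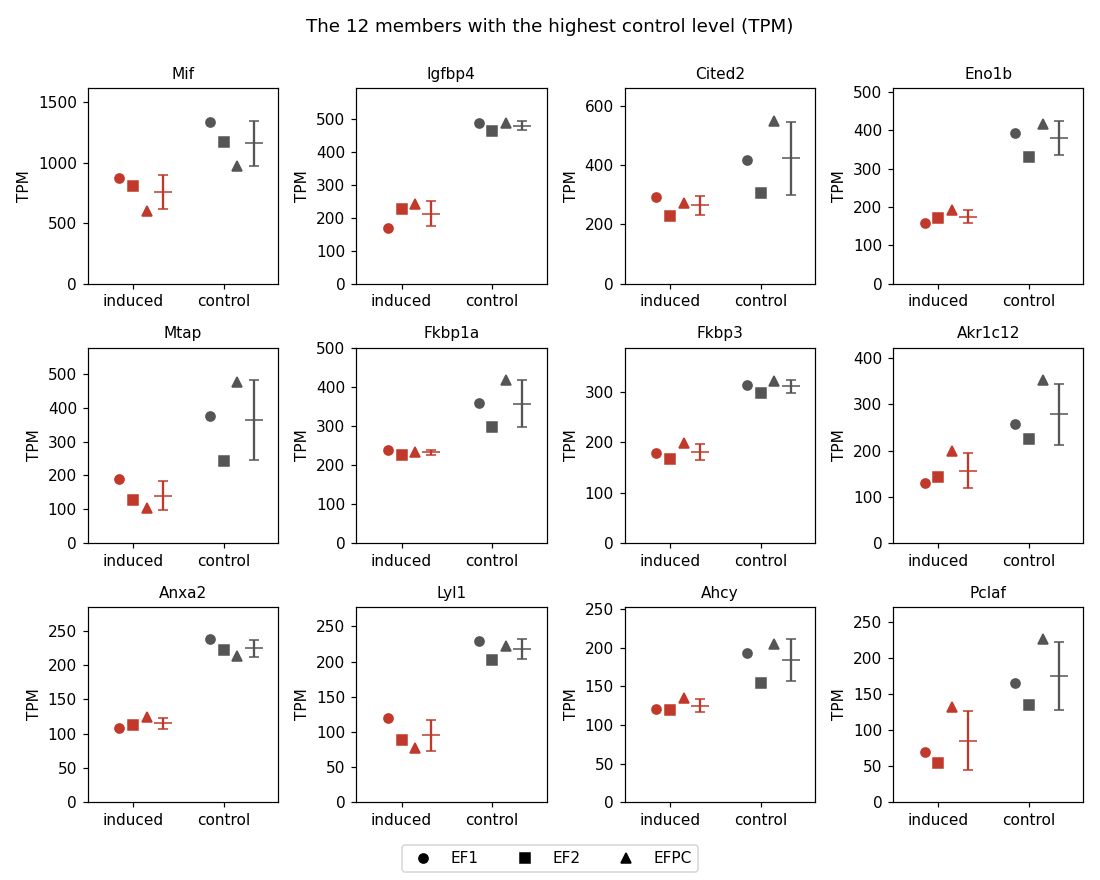
TPM by the authors of the 12 members with the highest control level per transcript length, induced left and control right, with a circle for EF1, a square for EF2 and a triangle for EFPC and a bar for the mean ± SD (n = 3). On this scale the groups do not overlap in any of the 12 panels.

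Protein folding members numbered 4. Fkbp1a, the prolyl isomerase FKBP12 that binds FK506 and rapamycin, had 201, 198 and 196 CPM in the induced cells, against 329.7, 300.5 and 344 CPM in the controls. Fkbp3, the nuclear relative FKBP25, had 85.2, 82.2 and 93.9 CPM in the induced cells, against 164, 172 and 151 CPM in the controls. Fkbp1b, which binds calcium release channels, had 4.21, 4.32 and 4.68 CPM in the induced cells, against 6.92, 12.6 and 7.202 CPM in the controls. Dnajc12, a co-chaperone, had 5.33, 3.82 and 6.81 CPM in the induced cells, against 13.4, 14.2 and 12.2 CPM in the controls. In the whole FK506-binding list, drawn up after the members were known, 13 of 16 genes had a row, and DESeq2 called the same 3 lower and 0 higher, against 2.65% and 4.25% of all genes. The rule had selected those 3 for being lower. The median edgeR log2 fold change of the 13 was -0.33. Fkbp4, a large immunophilin of steroid receptor complexes, had ratios of 0.588, 0.749 and 0.865. Its relative Fkbp5 had ratios of 0.6301, 0.913 and 1.12, and Fkbp8 had ratios of 0.935, 0.768 and 1.002.

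Receptors and signalling genes numbered 9, C3ar1 and Paqr7 among them. Dok2, an adaptor that restrains tyrosine kinase signalling, had 71.04, 43.02 and 118 CPM in the induced cells, against 131, 119.7 and 182 CPM in the controls. Arrb2, the arrestin that desensitises G protein-coupled receptors, had 70.1, 66.1 and 69.3 CPM in the induced cells, against 121, 104 and 113 CPM in the controls. Stap1, an adaptor downstream of receptor tyrosine kinases in blood cells, had 12.9, 18.9 and 22.8 CPM in the induced cells, against 32.5, 48.5 and 51.2 CPM in the controls, and its ratios of 0.398, 0.3899 and 0.446 were close to each other. Lpar5, a lysophosphatidic acid receptor, had 15, 14.6 and 23.3 CPM in the induced cells, against 29.6, 22.1 and 35.96 CPM in the controls, with overlapping groups. Dusp14, a phosphatase of MAP kinases, had ratios of 0.363, 0.458 and 0.525. Alpk3, an alpha-kinase, had ratios of 0.643, 0.502 and 0.568, and Trim45, a ubiquitin ligase, had ratios of 0.664, 0.646 and 0.559.

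Cell cycle members were 4. Pclaf, which binds the replication clamp PCNA, had 83.8, 68.6 and 158 CPM in the induced cells, against 217, 196 and 267 CPM in the controls, with the EFPC libraries highest in both groups. Haus8, a subunit of the augmin complex of the spindle, had 24.1, 21.4 and 30.9 CPM in the induced cells, against 41.2, 35.5 and 46.9 CPM in the controls. Rgcc, a regulator of cell cycle progression, had 3.12, 6.299 and 2.96 CPM in the induced cells, against 6.57, 10.4 and 6.24 CPM in the controls, with overlapping groups. Cdkn2b, given above, is an inhibitor of the cycle, so the class holds genes of opposite action.

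Membrane traffic, proteolysis and cytoskeleton genes made the largest named class, with 14 members. Anxa2, a calcium-dependent membrane-binding protein, had 75.9, 81.1 and 86.4 CPM in the induced cells, against 182, 187 and 147 CPM in the controls. Tspan3, a tetraspanin, had 34.97, 33.2 and 42.2 CPM in the induced cells, against 73.3, 77.8 and 72.3 CPM in the controls. Ehd2, an ATPase of caveolae, had 9.25, 16.2 and 29.8 CPM in the induced cells, against 42.98, 34.6 and 67.9 CPM in the controls, and its fall was deepest in EF1. Hip1, a clathrin adaptor, had ratios of 0.457, 0.636 and 0.257, and Myo1f, an unconventional myosin, had ratios of 0.382, 0.3299 and 0.563. Rilpl2, Snx21, Ttc8 and Aph1b, of vesicle, ciliary and gamma-secretase complexes, had control means of 6.66 to 39.8 CPM. Acta2, smooth muscle actin, had the lowest control mean CPM of the 92, at 2.505, 1.85 and 3.01 CPM in the induced cells, against 5.18, 6.26 and 4.54 CPM in the controls.

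Members outside these roles numbered 18. Cuedc1, which encodes a CUE domain protein, had 54.95, 60.4 and 52.5 CPM in the induced cells, against 112, 115 and 118 CPM in the controls. Glipr1 had 35.5, 50.4 and 28.4 CPM in the induced cells, against 92.3, 112 and 58.5 CPM in the controls. Mpnd had 20.4, 27.8 and 8.92 CPM in the induced cells, against 52.2, 57.1 and 37.2 CPM in the controls, with the EFPC library lowest in each group. Mettl26, described as a methyltransferase-like protein, had 15.5, 17.8 and 17.6 CPM in the induced cells, against 36.4, 42.4 and 35 CPM in the controls and a mean log2 ratio of -1.16 ± 0.14. The predicted gene Gm4737 had 105, 114 and 116 CPM in the induced cells, against 203, 184 and 178 CPM in the controls, and is uncertain as a single gene because it may share reads with a close copy.

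Near the limit, Zmym1, Lrfn1 and Nudt19 entered with ratios of 0.6667, 0.6658 and 0.6658 in their weakest pair. Depdc7, Elk3 and Plvap were left out at 0.6678, 0.6685 and 0.6725, so the ratio limit lay between 0.6667 and 0.6678. Zmym1 had 17.9, 9.67 and 21.9 CPM in the induced cells, against 26.8, 23.2 and 34.1 CPM in the controls. Lrfn1, a synaptic adhesion protein gene, had 8.09, 11.5 and 9.75 CPM in the induced cells, against 13.1, 17.3 and 17.5 CPM in the controls. Values thus continued across the limit. Among the genes left out, Depdc7 had 8.38, 8.95 and 8.06 CPM in the induced cells, against 13.96, 13.4 and 19.2 CPM in the controls. Elk3, an ETS-family transcription factor, had 47.9, 50.96 and 61.5 CPM in the induced cells, against 78.5, 82.8 and 92.01 CPM in the controls. Plvap, a protein of endothelial caveolae and fenestrae, had 3.31, 5.15 and 4.12 CPM in the induced cells, against 6.22, 8.59 and 6.13 CPM in the controls.

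Other genes of known pathways are given by list, and calls in them are to be read beside the DESeq2 shares over all genes, 2.65% lower and 4.25% higher. The hypoxia list leaves out hypoxia genes that the rule excluded by name, such as Pdk1 and Bnip3. Of its 22 tested genes, 0 were members. DESeq2 called 3 of them lower, Pgm2, Fam162a and Ak4, and 0 higher, and the list's median edgeR log2 fold change was -0.34. Fam162a had 31.2, 39.8 and 38.3 CPM in the induced cells, against 73.99, 82.5 and 51.9 CPM in the controls, and its EFPC ratio of 0.738 kept it out of the set. The nucleotide and one-carbon list held Rrm2 as its 1 member, with 22 of 23 genes negative, a median of -0.34 and 1 DESeq2 call, the nucleoside diphosphate kinase gene Nme1. The redox list held Gss, with 20 of 24 negative, a median of -0.33, and Txn1 and Sod1 called beside it. Over all 13260 genes the share of negative values was 51.5%.

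Of 23 lysosome and endosome genes, Lgmn was the 1 member, 13 were negative and the median was -0.04. Lamp2 was called higher by DESeq2, at 349, 332 and 183 CPM in the induced cells, against 140.2, 171 and 128 CPM in the controls. The sterol list (25 tested), the IL-3 and STAT5 list (16), the granule list (12) and the adhesion list (23) held 0 members, with medians of -0.29, 0.10, 0.40 and 0.37. DESeq2 called 1, 1, 0 and 1 of their genes lower and 0, 1, 3 and 2 higher, in that order, against 2.65% and 4.25% of all genes. The lower ones were Fdps, Cdk4 and Cd81.

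By position, members lay on all autosomes and the X chromosome. Chromosomes 10 and 4 held 9 each, or 9.78% of the members, against 4.81% and 6.30% of the 9417 genes, and chromosome 1 held 1 against 5.64%. Of the 92, 19 members overlap another gene of the table by RefSeq coordinates, a share not computed over the 9417 genes. Among them are Pclaf with Trip4 over 13229 bp, Dok2 with Xpo7 over 4976 bp and Glipr1 with Krr1 over 2983 bp. Zmym1, with a control mean of 28.05 CPM, overlaps Sfpq, with 539 CPM, over 4008 bp. Because the strand setting of counting is not given, reads in such overlaps may be shared. Galk1 overlaps Itgb4 over 56 bp, and Itgb4 had ratios of 2.38, 2.38 and 1.91. Members had a median control level of 19.9 TPM, against 29.4 TPM over the 9417. Their controls varied by a median coefficient of variation of 16.2%, against 14.1%, and their induced libraries by 23.2%, against 14.7%.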

How the data were processed

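RNA was sequenced from 6 Ba/F3 cultures, 3 induced and 3 control. The deposited table gives whole-number read counts per gene and the authors' TPM. Per the submitters' processing notes, HISAT2 and DESeq2 were used and the build was mm10; the sources used here give neither their versions nor the strand setting of counting. The deposited FPKM and log2 columns, 12 in all, were not used.

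Counts were divided by column totals (CPM) and the membership rule was applied to the pairs EF1, EF2 and EFPC. The background came from edgeR 4.0.16 (TMM, filterByExpr, quasi-likelihood test, Benjamini-Hochberg, R 4.3.3) over 13260 genes, and from DESeq2 1.42.0. The edgeR script was tested on simulated data in which all genes had the same spread and no library stood apart. That test therefore does not bear on the EFPC libraries. Same-numbered libraries deviated together from their group means (correlations 0.174, 0.342 and 0.351 over 13260 genes). Unlike-numbered EF1 and EF2 libraries did so too. The correlation was 0.149 for induced EF2 with control EF1 and 0.0991 for induced EF1 with control EF2. Correlations of EFPC with EF1 or EF2 libraries ran from -0.397 to -0.183. The pairing was therefore taken from the shared title prefix. The members, the role classes and the gene lists were chosen with earlier results of these data known. Values in every library were to be given for the 12 members with the lowest mean log2 ratio, the 12 with the highest control TPM, those at the limit and up to 4 of each role; other genes were named after their values were seen. TPM was used for the members with the highest control level per transcript length and for the median control levels. CPM was used for all else, also for choosing genes of each role and for the highest and lowest control CPM. Such CPM rankings between genes do not allow for transcript length. Promoters came from RefSeq (GRCm38.p6), positions from RefSeq. Alternatives covered scaling, filters, the test, the block, the limits and each library left out.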

Additional observations from a re-analysis of the deposited data

How the results depend on the processing

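The set had 92 members with column totals, 79 with TMM scaling (77 of them shared) and 82 with DESeq2 size factors (78 shared). A ratio limit of 0.5 left 16 genes and 0.8 took 435. Every induced library against every control left 33. Using 2 pairs in place of 3 gave 121 to 530 genes, the highest without the EFPC pair. A control minimum of 1 CPM gave 132 and of 10 CPM 74.

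Over all tested genes edgeR called 0 lower and 0 higher, as it did with DESeq2 size factors, without the low-count filter, with a filter at a mean of 1 CPM and with the replicate block. DESeq2 called 348 lower, 73 members among them, and 558 higher. With the replicate block it called 569 lower, 90 members among them, and 770 higher. With libraries left out, edgeR called 0 to 844 genes lower, 0 to 1300 higher and 0 to 77 members. Calls appeared only without the induced EFPC library (273 lower, 619 higher, 42 members) or without both EFPC libraries (844, 1300 and 77). The cause was not tested. For the 58 members named by rule, 522 recomputed log2 fold changes ran from -3.08 to -0.48, and 0 reversed. Of these, 45 moved by over 1 SD of the pair ratios, all with a library left out. The rule had selected the members for being lower in every pair, so nothing is read from the 0 reversals. Low counts limit the ratios of members near 5 CPM.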
